A study of Mus musculus with 4 samples.

Results

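The interaction between a microRNA vector and the loss of MYC was measured on 4 Illumina mouse bead arrays. For each gene the DOX effect of the miR-17-92 cells was taken (log2 signal with DOX minus log2 signal without DOX), and the DOX effect of the control cells was subtracted from it. The outcome is called the difference below. It is a log2 value in which 1 stands for 2-fold, and a positive value means that the signal with DOX was kept higher, relative to its own level without DOX, in the miR-17-92 cells. The values cover the 6949 of 19057 named genes on the array that had a probe with a detection p-value of at most 0.01 on all 4 arrays.

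All 4 cultures were CL4188 cells of FVB/N strain, a conditional mouse lymphoma line in which doxycycline (DOX) turns the MYC transgene off. The groups were cells with the retroviral vector MSCV-miR-17-92 after DOX, the same cells without DOX, cells with the MSCV control vector after DOX, and those cells without DOX. DOX was given at 20 ng/ml for 48 hours. Each group held 1 array from 1 line, so no value below has a replicate check or an error, no test was possible, and any property of a single culture or array cannot be told apart from the group it stands for.

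MYC is a transcription factor that drives growth, ribosome production, metabolism and entry into S phase, and lymphomas that depend on it stop dividing, enter a senescence-like state or die when it is withdrawn. The miR-17-92 cluster is a polycistronic microRNA gene that MYC activates. Its products lower the output of target mRNAs through base pairing of their seed, and reported targets include the cell death gene Bcl2l11 and several chromatin regulators. The question was what changes in the response to MYC withdrawal when a retroviral vector supplies the cluster.

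Mature microRNAs of the cluster are shown with bases 2 to 8, the seed, in capitals, because the seed sets which mRNAs can pair with them. Sequences are 5′ to 3′, from RefSeq on GRCm38.p6, where the endogenous cluster lies on the plus strand of chromosome 14 between 115043684 (first base of miR-17-5p) and 115044496 (last base of miR-92a-3p).
mmu-miR-17-5p: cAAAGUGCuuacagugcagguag
mmu-miR-20a-5p: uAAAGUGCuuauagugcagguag
mmu-miR-18a-5p: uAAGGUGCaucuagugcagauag
mmu-miR-19a-3p: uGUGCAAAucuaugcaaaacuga
mmu-miR-19b-3p: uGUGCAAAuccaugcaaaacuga
mmu-miR-92a-3p: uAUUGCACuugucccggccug
The 6 microRNAs fall into 4 seeds. miR-17-5p and miR-20a-5p share 1 seed, miR-19a-3p and miR-19b-3p share another, and miR-18a-5p and miR-92a-3p have seeds of their own. The arrays do not read mature microRNAs, so which of them the vector delivered, and in what amount, was not measured.

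The number of detected probes ran from 13251 to 14864 of 45281 per array. The file headers give slide positions, which were linked to the arrays by the order of their signals. By this link the DOX arrays shared 1 slide and the arrays without DOX shared another. What a slide does alike to both lines thus drops out of the difference. The brighter Myc probe checked the DOX labels, and no value checked the vector labels. This probe was at log2 5.30 with DOX and 8.74 without DOX in the miR-17-92 cells, against 4.92 and 8.80 in the control cells. Neither DOX array detected it (detection p-values of 0.189 and 0.615), which leaves Myc outside the genes described. Of 9 T-cell markers on the array, 8 were detected on each DOX array and 6 on each array without DOX. Of 21 markers for stromal, erythroid, natural killer, myeloid or B cells, 3 were detected on each DOX array (Vpreb1, Itgam and Pecam1) and 1 without DOX (Pecam1).

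The lines were closer on the arrays without DOX than on the arrays with DOX. Without DOX, 27 of 6949 genes (0.389%) differed by at least 2-fold between the miR-17-92 cells and the control cells, with an SD of 0.25 over genes. With DOX, 677 genes (9.74%) did, with an SD of 0.61. Each gap is measured within 1 slide, and the difference described here is the gap with DOX minus the gap without it. Slide and DOX coincide, so a noisier slide or array cannot be told apart from DOX here.

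**Figure D1:**
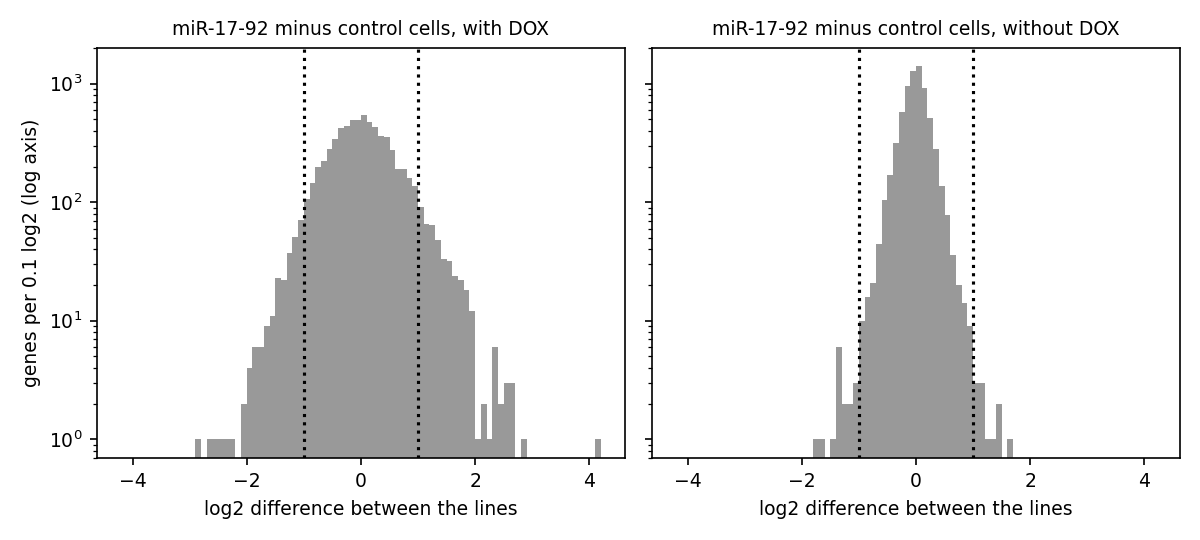
Histograms of the log2 gap between the lines (miR-17-92 cells minus control cells) for 6949 genes, with DOX on the left and without DOX on the right. The vertical axis counts genes per bin on a log scale, and dotted lines mark 2-fold. The left histogram is the wider one, with an SD of 0.61, against 0.25 without DOX.

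Of the 6949 genes, 437 (6.29%) had a difference at least 2-fold above 0 and 189 (2.72%) one at least 2-fold below it, while 50.9% lay above 0 and 49.1% below it (median 0.01). Among the 437 genes, 427 had a larger gap between the lines with DOX than without it, and among the 189 genes 181 did, which the choice of genes by this difference nearly fixes. The upper group had a median DOX effect of 0.08 in the miR-17-92 cells and -1.30 in the control cells. For the lower group these medians were 0.15 in the miR-17-92 cells and 1.41 in the control cells. Each median was taken by itself and does not describe 1 gene. The genes were chosen by the difference of these 2 effects, so the medians describe the choice and are not separate evidence. The counts were 282 above and 76 below with the authors' processed values, so the number of genes past 2-fold depends on the processing.

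Over all genes, 12.2% were 2-fold higher and 12% 2-fold lower with DOX in the miR-17-92 cells, against 17.2% and 18.2% in the control cells. Of the 437 upper genes, 230 stayed within 2-fold in the miR-17-92 cells while being 2-fold lower among control cells. A further 50 were 2-fold lower in both lines, 60 were 2-fold higher in the miR-17-92 cells and within 2-fold in the control cells, 95 were within 2-fold in both, and 2 were 2-fold higher in both. Of the 189 lower genes, 82 stayed within 2-fold in the miR-17-92 cells while being 2-fold higher among control cells, 40 were 2-fold higher in both, and 41 were within 2-fold in both. Another 20 were 2-fold lower among miR-17-92 cells while staying within 2-fold in control cells, 5 were 2-fold lower in both, and 1 gene, Grasp, crossed 2-fold in opposite directions.

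**Figure D2:**
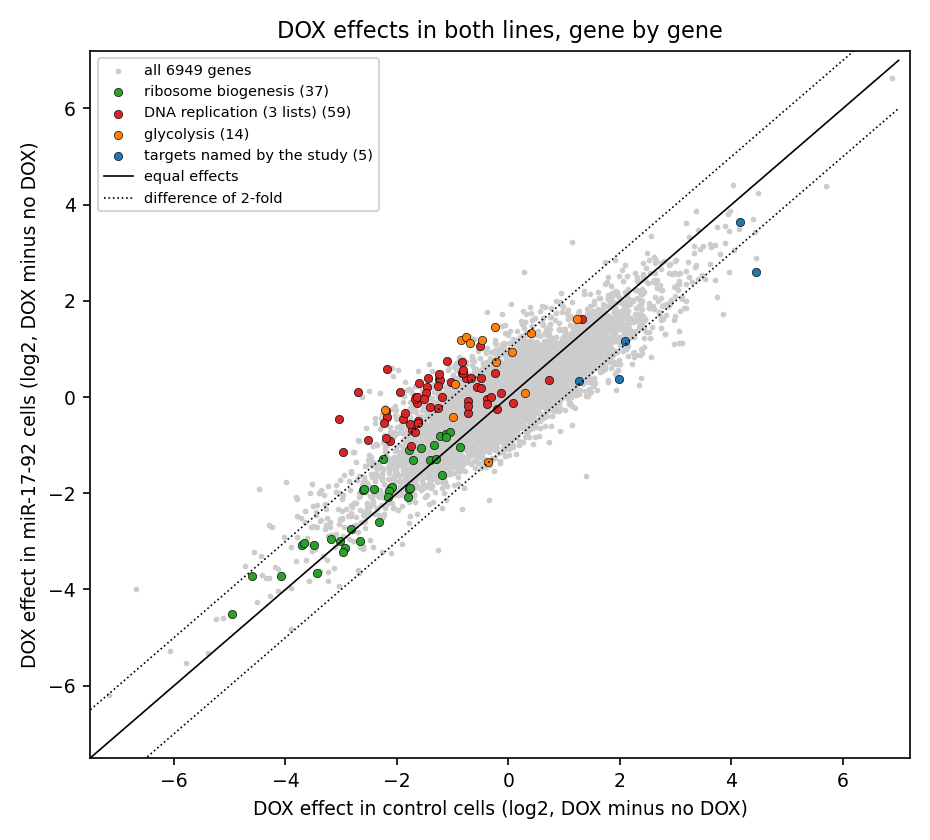
DOX effect (log2, DOX minus no DOX) of each of 6949 genes in the control cells on the horizontal axis and in the miR-17-92 cells on the vertical axis, with lines at equal effects and at a difference of 2-fold. Most DNA replication genes and most glycolysis genes lie above the line of equal effects, ribosome biogenesis genes lie along it (all 37 within 2-fold), and the 5 targets named by the study lie below it.

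Genes of the DNA replication fork lay well above 0. All 12 genes of the replicative helicase, the ring of MCM proteins with GINS and CDC45 that unwinds DNA at the fork, were detected on all 4 arrays. All 12 had a positive difference and 11 of them were at least 2-fold above 0 (6.29% of all genes were), with a median of 1.55. Their median DOX effect was -0.04 in the miR-17-92 cells and -1.51 in the control cells. Gins2, a GINS subunit, had the highest difference of all named genes (2.81). Its level was log2 10.77 with DOX and 10.66 without DOX in the miR-17-92 cells, against 8.40 and 11.10 in the control cells. The control cells with DOX thus stood apart from the other 3 arrays, and a second Gins2 probe gave 2.74.

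Mcm6, a subunit of the MCM ring, was at 13.27 with DOX and 13.73 without DOX in the miR-17-92 cells and at 10.93 and 13.96 in the control cells, a difference of 2.57 (2.28 by a second probe). The helicase activator Mcm10 (1.77) and the ring subunits Mcm5 (1.72) and Mcm3 (1.69) followed. Gins3 had a difference of 1.58 made in another way, since it was higher with DOX in the miR-17-92 cells (DOX effect 1.07) and within 2-fold in the control cells (-0.52). Gins4, at 0.53, was the helicase gene within 2-fold.

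Polymerase and fork genes gave the same picture with a wider spread. Of 40 listed genes 36 were detected on all arrays, of which 35 were above 0 and 26 at least 2-fold above it (median 1.34, from -0.05 to 2.77). Dscc1, a subunit of the clamp loader that couples replication to cohesion, was at 9.20 with DOX and 8.61 without DOX in the miR-17-92 cells, against 6.71 and 8.89 in the control cells. Pold1, the catalytic subunit of DNA polymerase delta, was at 12.77 and 12.66 in the miR-17-92 cells and at 10.93 and 12.87 in the control cells, again with DOX first. Both were low on the control array with DOX only. The differences were 2.77 for Dscc1, 2.05 for Pold1, 1.89 for Pole, the catalytic subunit of polymerase epsilon, 1.89 for the primase subunit Prim2, 1.86 for Lig1, the ligase that joins Okazaki fragments, and 1.82 for Pold2.

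Licensing genes were more mixed. Of 11 detected among 12 listed, 9 lay above 0, of which 5 by 2-fold or more (median 0.76). The helicase loaders Cdc6 (1.83) and Cdt1 (1.51), the origin recognition subunits Orc6 (1.67) and Orc1 (1.22), and Gmnn, which encodes the Cdt1 inhibitor geminin (1.16), were past 2-fold. The kinase gene Cdc7 stood at 0.76. In a bulk culture, fewer cells in S phase and less of each mRNA per cell cannot be told apart.

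Promoters were examined because most replication genes lay above 0, and many such genes are known targets of E2F factors. The 300 bases from 250 before to 50 after each gene's start came from RefSeq on GRCm38.p6. Of the 6 replication genes with the highest difference, Mcm6 and Pold1 are shown, with every match to the E2F motif TTTNNCGC on either strand in capitals, overlapping matches merged. No promoter sequence was available for Gins2, Dscc1, Pole and Prim2, so they were not searched. The Mcm6 promoter spans chr1:128359656-128359955 (minus strand) and holds 3 matches. The Pold1 promoter spans chr7:44548766-44549065 (minus strand) and holds 1.
Mcm6: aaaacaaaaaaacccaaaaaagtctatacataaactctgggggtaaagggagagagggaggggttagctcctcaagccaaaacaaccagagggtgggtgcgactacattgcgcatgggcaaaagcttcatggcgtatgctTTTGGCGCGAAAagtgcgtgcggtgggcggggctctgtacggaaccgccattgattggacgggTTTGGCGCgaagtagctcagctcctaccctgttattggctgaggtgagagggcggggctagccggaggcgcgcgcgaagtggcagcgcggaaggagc
Pold1: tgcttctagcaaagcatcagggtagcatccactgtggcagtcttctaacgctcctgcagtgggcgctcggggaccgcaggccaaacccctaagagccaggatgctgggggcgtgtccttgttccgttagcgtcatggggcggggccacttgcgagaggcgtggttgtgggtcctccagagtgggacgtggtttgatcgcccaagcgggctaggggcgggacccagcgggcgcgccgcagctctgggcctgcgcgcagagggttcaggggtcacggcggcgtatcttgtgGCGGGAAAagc

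The E2F motif was present in 18.6% of 451 promoters of genes at least 2-fold above 0 and in 7.31% of 219 promoters of genes at least 2-fold below 0. Among genes within 2-fold it was present in 9.02% of 6654 promoters, and in 5.17% of all 32851 promoters of the table. Of 9 helicase promoters, found for 8 of the 12 genes, 5 held it. So did 9 of 33 polymerase and fork promoters and 1 of 21 glycolysis promoters. The CHR element TTTGAA, on either strand, was in 31 of 44 mitosis promoters (70.5%) and in 12.1% of the 7324 promoters of all genes analysed, and 3 of 9 helicase promoters held it. The CCAAT box was in 75.0% of mitosis promoters, in all 9 helicase promoters and in 38.8% for all genes analysed. The E2F motif was in 18.2% of mitosis promoters. The MYC-binding E-box CACGTG, its own reverse complement, was in 7.10% of the promoters of genes 2-fold above 0, in 11.4% of those 2-fold below 0, and in 11.0% of all genes analysed. Promoters were found for 5763 of the 6949 genes. A match is a description of these letters and does not show binding.

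Genes that work beside the fork were also above 0. Of 12 chromatin assembly genes 10 were detected, 8 were above 0 and 6 of those by 2-fold or more (median 1.08). They included the histone chaperone gene Asf1b (1.42), the maintenance methyltransferase gene Dnmt1 (1.32), both CAF-1 subunit genes Chaf1a (1.30) and Chaf1b (1.20), the histone chaperone Nasp (1.11) and Uhrf1, which guides DNMT1 to the fork (1.06). Canonical histone genes, which supply the new chromatin of S phase, were examined after 2 of them, H4c14 and H4c18 (2.17 each), appeared among the 15 highest genes. Of 50 on the array 43 were detected, of which 42 were above 0 and 29 at least 2-fold above it. Their median difference was 1.60, with a median DOX effect of 0.16 in the miR-17-92 cells and -1.48 in the control cells. Copies of these genes are nearly identical, so probes may read several of them and the 43 are not separate measurements. Probes of 1 gene also disagreed both ways. H3c7 stood at 1.85 but at -1.24 by its second probe, and H3c10 at 0.22 but at 1.68.

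Checkpoint and repair genes differed among themselves. Of 46 listed genes 29 were detected on all arrays, of which 25 were above 0 and 10 at least 2-fold above it (median 0.64). Chek1, the kinase that guards stalled forks, was at 8.93 with DOX and 8.92 without DOX in the miR-17-92 cells, against 6.58 and 9.21 in the control cells, a difference of 2.64. Ung, which removes uracil from DNA, was at 10.95 and 12.86 in the miR-17-92 cells and at 8.48 and 12.94 in the control cells, with DOX first. It was lower with DOX in both lines, so its difference of 2.56 marks a smaller drop and not a kept level. The Fanconi ubiquitin ligase gene Fancl stood at 1.60 but at 0.33 by its second probe. The recombination genes Rad54b (1.47) and Rad54l (1.39) and Trip13 (1.37) were further examples.

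Among regulators of the G1/S step, 17 of 23 were detected on all arrays, 14 were above 0 and 3 at least 2-fold above it (median 0.56). Mybl2, an E2F-responsive MYB factor, stood at 1.58 (0.86 by a second probe). E2f1 was at 10.58 with DOX and 10.96 without DOX in the miR-17-92 cells and at 9.28 and 11.21 in the control cells, a difference of 1.54. The third was Ccna2, the gene of cyclin A2 (1.004), ahead of E2f3 (0.89), the E2F partner Tfdp1 (0.88) and E2f5 (0.71). E2f1 and E2f3 are themselves reported targets of the cluster. Of CDK inhibitors and pocket proteins 5 of 10 were detected, and only the pocket protein gene Rbl1 (1.14) was past 2-fold. The inhibitors Cdkn2d (-0.16), Cdkn2c (-0.00) and Cdkn2a (0.23) and the pocket protein gene Rb1 (0.25) stood near 0. Cdkn2d had DOX effects of 2.83 in the miR-17-92 cells and 2.995 in the control cells.

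**Figure D3:**
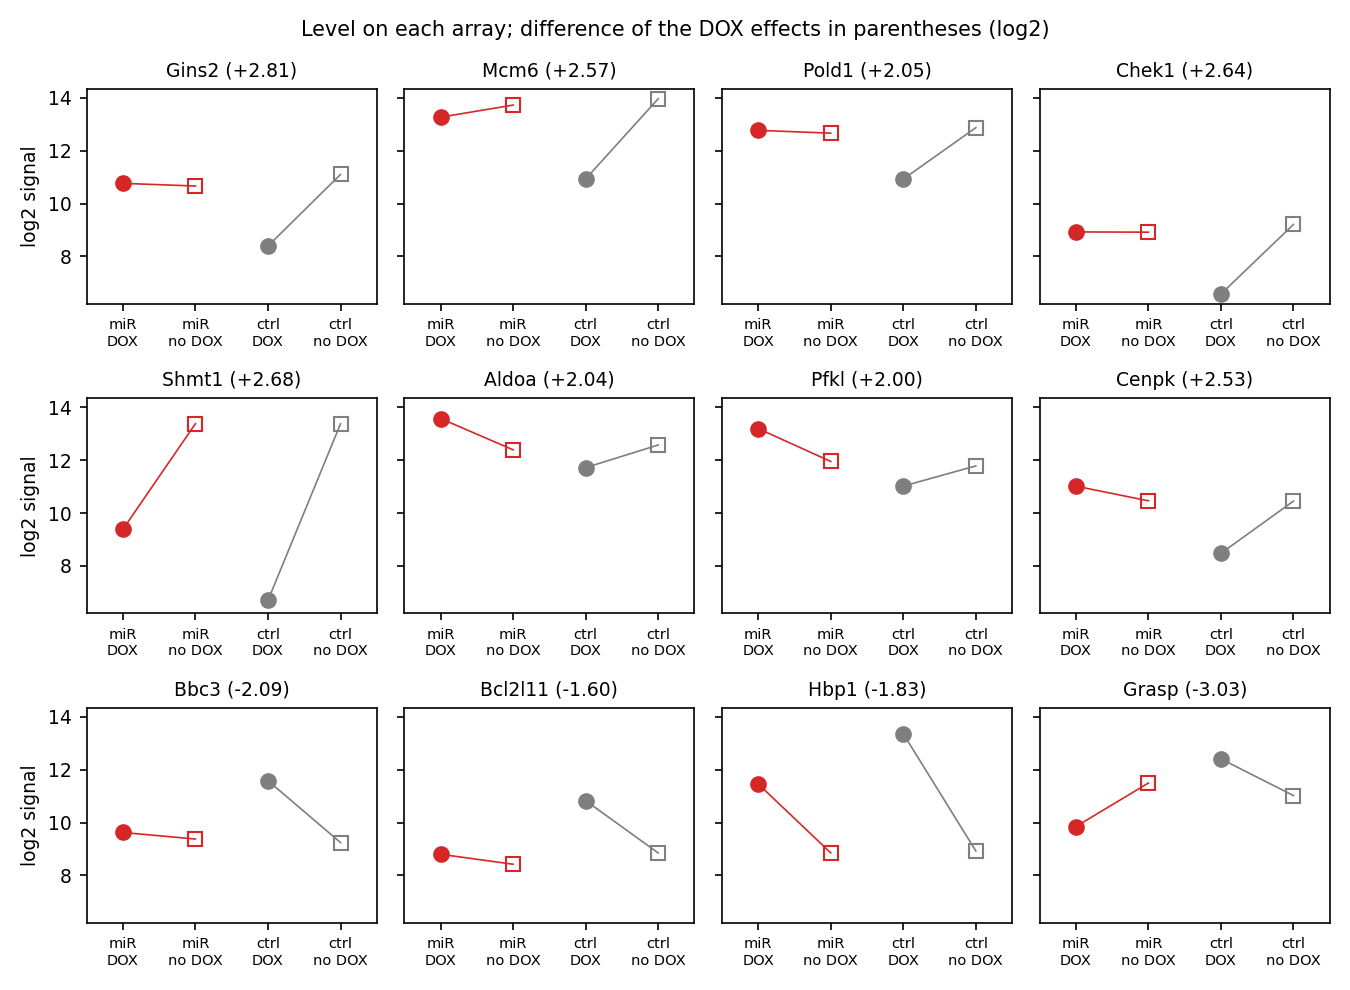
Log2 signal on each of the 4 arrays for 12 genes, with the miR-17-92 cells in red and the control cells in grey, filled circles with DOX and open squares without DOX. The number after each gene name is its difference. In Gins2, Mcm6, Pold1 and Chek1 the control array with DOX is the lowest of the 4, in Bbc3, Bcl2l11 and Hbp1 it is the highest, and Grasp has opposite slopes.

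All detected mitotic genes were above 0, with a lower median than the helicase genes. Of 52 listed genes 46 were detected, and 23 of the 46 were at least 2-fold above 0 (median 0.996, from 0.14 to 2.53). Their median DOX effect was 0.55 in the miR-17-92 cells and -0.35 in the control cells. The kinetochore gene Cenpk was at 11.02 with DOX and 10.46 without DOX in the miR-17-92 cells, against 8.48 and 10.45 in the control cells. It had the highest difference of the list (2.53). The kinetochore genes Nuf2 (1.86), Cenph (1.67), Spc24 (1.50), Cenpf (1.42, but 0.52 by its second probe) and Cenpm (1.28) came next. Of these, Cenpf was 2-fold higher with DOX in the miR-17-92 cells (1.73) and within 2-fold in the control cells (0.31).

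Glycolytic genes parted in another way, because several were higher with DOX in the miR-17-92 cells than without it. Of 22 listed genes 14 were detected, of which 12 were above 0 and 7 at least 2-fold above it (median 1.09). Their median DOX effect was 1.04 in the miR-17-92 cells and -0.42 in the control cells. Aldoa, the muscle-type aldolase, was at 13.58 with DOX and 12.39 without DOX in the miR-17-92 cells and at 11.72 and 12.57 in the control cells, a difference of 2.04. Pfkl, a phosphofructokinase, was at 13.19 and 11.95 in the miR-17-92 cells and at 11.02 and 11.78 in the control cells, with DOX first. Both genes had their highest level on the miR-17-92 array with DOX and their lowest on the control array with DOX. The difference of Pfkl was 2.00, and 0.73 by its second probe.

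The other enzymes past 2-fold were Pgam1 (1.94), Tpi1 (1.82), Pgk1 (1.67) and Ldha (1.22), together with the glucose transporter gene Slc2a1 (1.70). A second probe gave 1.37 for Pgam1, 1.95 for Tpi1 and 0.05 for Pgk1, so the probes of Pgk1 disagree. Gapdh stood at 0.88 and Pkm, the pyruvate kinase of dividing cells, at 0.92. On the other side were Pfkm (-0.20) and Eno3 (-0.998), the muscle enolase, whose lines differed without DOX already (gap of 1.43). Of 27 hypoxia-response genes outside glycolysis 16 were detected, of which 13 were above 0 and 4 at least 2-fold above it (median 0.79). These were Vegfa (1.36), the angiogenic factor, Stc2 (1.33), Mif (1.18) and Ankrd37 (1.06). Hif1a, which encodes the oxygen-regulated factor itself, stood at -0.53.

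In serine, glycine and folate metabolism, 7 of 8 detected genes were lower with DOX in both lines, by less in the miR-17-92 cells. The exception was the thymidylate synthase gene Tyms, with DOX effects of 0.35 in the miR-17-92 cells and -0.46 in the control cells. All 8 detected genes of 17 were above 0 and 5 of them by 2-fold or more (median 1.05), with median DOX effects of -2.55 in the miR-17-92 cells and -3.09 in the control cells. When the control effects were scaled by the overall size of the response, the median was 0.52, and Phgdh (-0.03) and Ahcy (-0.12) lay below 0. Shmt1, the cytosolic serine hydroxymethyltransferase, was at 9.39 with DOX and 13.38 without DOX in the miR-17-92 cells, against 6.70 and 13.38 in the control cells. Without DOX the lines thus had the same level, and the difference was 2.68. Psat1 (1.64), Mthfd1 (1.34), Mthfd2 (1.05) and mitochondrial Shmt2 (1.05) followed. Gcat, which makes glycine from threonine and was not on the list, had a difference of 2.24, with DOX effects of -1.76 in the miR-17-92 cells and -3.99 in the control cells.

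Nucleotide synthesis genes lay mostly above 0 on both lists, with a lower median for the purine list. Pyrimidine and deoxynucleotide synthesis genes had a median of 0.80, or 0.55 when the control effects were scaled by the overall size of the response. All 19 were detected, of which 15 were above 0 and 5 at least 2-fold above it. These were Dut, which removes dUTP (1.84), Dctpp1 (1.44), Rrm1, the large subunit of ribonucleotide reductase (1.42), thymidine kinase Tk1 (1.34) and CTP synthase Ctps (1.30). Second probes of Rrm1 (0.97) and Tk1 (0.92) were within 2-fold. The alternative reductase subunit Rrm2b, a p53 target, lay on the other side (-0.93). Among purine synthesis genes, with the salvage enzyme gene Hprt (0.86) on the list, 12 of 14 genes were detected and 9 lay above 0. Gart alone was past 2-fold (1.28, but 0.68 by its second probe). The purine median of 0.30 turned to -0.10 when the control effects were scaled by the overall size of the response.

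Ribosome genes, which MYC is known to drive, had differences near 0. Of 45 ribosome biogenesis genes 37 were detected and all 37 were within 2-fold, from -0.42 to 0.96, as were 6323 of all 6949 genes. Above 0 lay 27 of the 37 (50.9% of all genes did). The median was 0.23 and turned to -0.24 when the control effects were scaled. Their median DOX effect was -1.91 in the miR-17-92 cells and -2.16 in the control cells. The box C/D protein gene Nop58 (0.96) and the processing factor Rrp12 (0.87, which turned to -0.05 when the control effects were scaled) were the highest. All 26 detected cytosolic ribosomal protein genes of 41 were within 2-fold as well by their brightest probe. Their median was 0.04, and from -0.17 to 0.11 over the alternatives. Many of these probes lay near the top of the signal range, where a difference may show less, which was not tested. Rplp1 was at 15.97 with DOX and 15.94 without DOX in the miR-17-92 cells, and the highest mean of any gene was 15.99. Second probes ran from -0.31 for Rps9 to 1.03 for Rpl28, which stood at 0.20 by its brightest probe. Mitochondrial translation had 3 of 30 detected genes at least 2-fold above 0 (6.29% of all genes were), with a median of 0.33. These were Mrps28 (1.50), Mrps22 (1.28) and Mrps7 (1.02, but 0.67 by a second probe).

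Of the 31 detected genes on a list of reported MYC-induced genes, 30 were above 0 and 7 past 2-fold, with a median of 0.64 that came to -0.00 when the control effects were scaled. They included Odc1, the first enzyme of polyamine synthesis (1.57), the peroxiredoxin Prdx4 (1.44) and Ybx3 (1.22), beside Shmt1, Pold2, Ldha and Shmt2 named above. Srm, which encodes spermidine synthase, was at 7.78 with DOX and 13.97 without DOX in the miR-17-92 cells and at 6.74 and 13.90 in the control cells. Its level was thus far lower with DOX in both lines, and the difference was 0.97. Mir17hg, the host transcript of the endogenous cluster, was at 7.27 with DOX and 10.21 without DOX in the miR-17-92 cells, against 6.73 and 10.34 in the control cells. Its difference of 0.68 turned to -0.04 when the control effects were scaled.

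**Figure D4:**
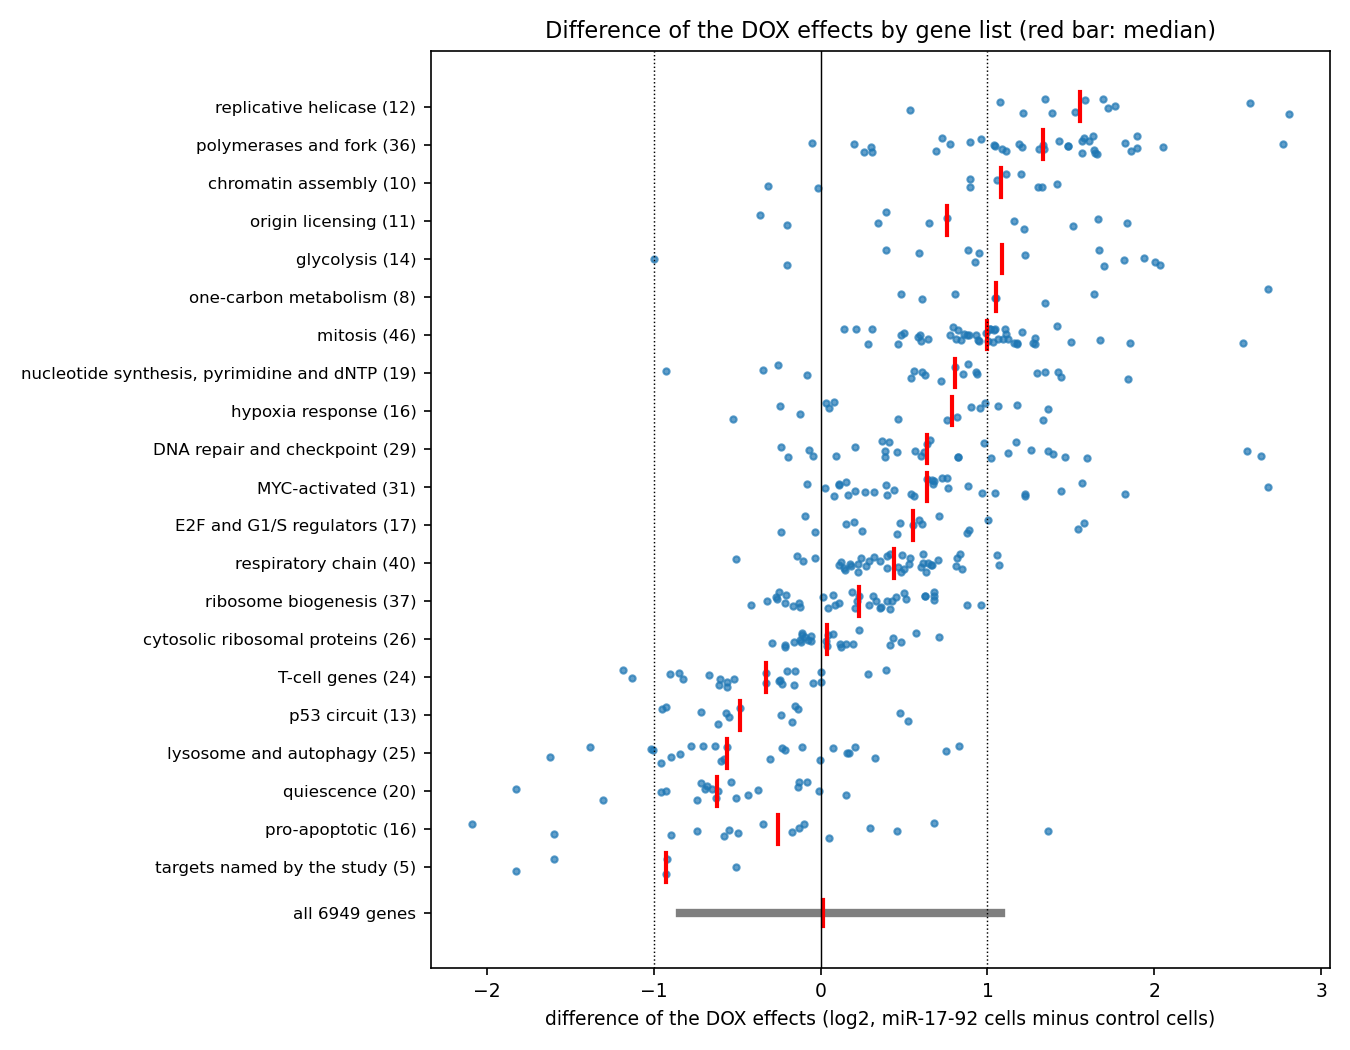
Difference of the DOX effects (log2, miR-17-92 cells minus control cells) of each detected member of 21 gene lists, as points, with a red bar at the list's median and dotted lines at 2-fold. The bottom row gives the median and the range from the 5th to the 95th percentile over all 6949 genes (-0.84 to 1.08). Replication lists lie at the right and the targets named by the study at the left.

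Below 0, the cell death genes Bbc3 and Bcl2l11 stood out of a list that was mixed. Of 27 pro-apoptotic genes 16 were detected on all arrays, of which 11 were below 0, 2 at least 2-fold below it (2.72% of all genes were) and 1 at least 2-fold above it (median -0.26). Bbc3, the gene of the BH3-only protein PUMA, was at 9.63 with DOX and 9.38 without DOX in the miR-17-92 cells, against 11.58 and 9.24 in the control cells. Bcl2l11, the gene of the BH3-only protein BIM, was at 8.80 and 8.42 in the miR-17-92 cells and at 10.83 and 8.85 in the control cells, again with DOX first. Both were high on the control array with DOX and near each other on the other 3 arrays. The difference was -2.09 for Bbc3 and -1.60 for Bcl2l11 (-0.91 by its second probe).

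Bik, another BH3-only gene, went the other way, at 9.40 with DOX and 7.81 without DOX in the miR-17-92 cells, against 8.11 and 7.88 in the control cells (1.36). The initiator caspase gene Casp8 (-0.90) and the executioner Casp6 (-0.74) were next, and Fas, the death receptor, had DOX effects of 3.16 in the miR-17-92 cells and 3.71 in the control cells. All 6 detected pro-survival genes of 14 were within 2-fold, as were 6323 of all 6949 genes. Among them were Birc2 (-0.75), Mcl1 (-0.73) and Bcl2l1, the gene of BCL-XL (0.23). Among p53 circuit genes 11 of 13 detected were below 0 (49.1% of all genes were), led by Trp53inp1 (-0.95), with a median of -0.48. None was at least 2-fold below 0, where 2.72% of all genes were, or 2-fold above it.

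Hbp1, Bcl2l11, Sin3b, Kmt5b and Btg1, the 5 cluster targets of the study, all lay below 0 and 2 were past 2-fold (median -0.93). The study may have chosen them on these samples, so their direction is not independent evidence. Hbp1, a repressor of transcription that slows cell division, was at 11.46 with DOX and 8.85 without DOX in the miR-17-92 cells and at 13.36 and 8.93 in the control cells. Its difference was -1.83, and -1.88 by a second probe. Sin3b, a co-repressor subunit, was at 9.67 and 9.33 in the miR-17-92 cells and at 10.96 and 9.70 in the control cells, with DOX first (-0.93). Kmt5b, which methylates histone H4 at lysine 20, was at 9.97 and 8.81 in the miR-17-92 cells and at 11.15 and 9.06 in the control cells (-0.92). Btg1, an antiproliferative gene, was at 13.71 and 10.07 in the miR-17-92 cells and at 14.46 and 10.31 in the control cells. Its difference of -0.51 turned to 0.32 when the control effects were scaled. For all 5 the level with DOX was lower in the miR-17-92 cells than in the control cells, with a gap (miR-17-92 minus control) of -0.75 for Btg1 to -2.03 for Bcl2l11, while without DOX the gap was -0.07 for Hbp1 to -0.43 for Bcl2l11.

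Other reported targets of the cluster showed no common direction. Of 37 listed genes 22 were detected, of which 12 were below 0, 10 above it, and 2 at least 2-fold above it (E2f1 and Rbl1, both named above), with a median of -0.02 that turned to 0.08 when the control effects were scaled. The receptor gene Tgfbr2 stood at -0.69, the lipid phosphatase gene Inpp5d at -0.75 and Pik3ip1, which restrains PI3 kinase, at -0.65. When the control effects were scaled, Tgfbr2 came to -0.09, Inpp5d to -0.33 and Pik3ip1 turned to 0.18. Of 31 SIN3, HDAC and silencing genes 26 were detected, with Hbp1 at least 2-fold below 0, Sap30 at least 2-fold above it (1.002) and a median of -0.08 that turned to 0.02 when the control effects were scaled. The histone demethylase genes Kdm5b (-0.92) and Kdm5a (-0.87) were below 0 and within 2-fold.

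Quiescence genes were below 0 in 19 of 20 detected cases of 33, and 2 were past 2-fold (median -0.62). Their median DOX effect was 0.91 in the miR-17-92 cells and 1.64 in the control cells. Txnip, a brake on glucose uptake, was at 13.34 with DOX and 8.95 without DOX in the miR-17-92 cells and at 14.64 and 8.94 in the control cells. The difference was -1.30 (-0.84 by a second probe) and came to -0.16 when the control effects were scaled, while Hbp1 kept -0.94. The MAX partner Mxd4 (-0.96), the glucocorticoid-induced Tsc22d3 (-0.93), Foxo3 (-0.74) and the stress sensor Sesn1 (-0.72) were further members within 2-fold. T-cell genes were below 0 in 20 of 24 detected cases of 34, with the co-receptor gene Cd4 (-1.18) and the receptor zeta chain gene Cd247 (-1.13) past 2-fold and a median of -0.33 that came to -0.07 when the control effects were scaled. Over all genes 49.1% lay below 0 and 2.72% were past 2-fold there.

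Single genes at both extremes lay partly outside these lists. Among the 15 highest were Prelid2 (2.61), Arl2, a small GTPase of tubulin folding (2.51), Tmem107, a protein of the ciliary transition zone (2.39, but -0.11 by its second probe), Tmem45a (2.33) and Tcf19 (2.15). Tmem45a was at 10.80 with DOX and 8.20 without DOX in the miR-17-92 cells, against 8.16 and 7.89 in the control cells. It was high on 1 array of the 4, that of the miR-17-92 cells with DOX, and Tcf19, with DOX effects of 1.77 in the miR-17-92 cells and -0.39 in the control cells, was also highest there.

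The lowest was Grasp, a scaffold protein gene, at 9.85 with DOX and 11.50 without DOX in the miR-17-92 cells and at 12.41 and 11.02 in the control cells. Its DOX effects ran in opposite directions, giving a difference of -3.03, and -1.65 by a second probe. St6gal1, a sialyltransferase gene, was at 11.52 and 9.79 in the miR-17-92 cells and at 13.50 and 9.66 in the control cells, with DOX first (-2.12). The tyrosine kinase gene Tec (-2.01), the helicase gene Dhx34 (-1.98), Podxl2 (-1.94), the phosphodiesterase gene Pde1b (-1.87), the polarity gene Llgl2 (-1.79), Klf7 (-1.73), the mitochondrial branched-chain aminotransferase gene Bcat2 (-1.71), Klhl24 (-1.69) and Snn (-1.66) followed. Tex14 (-1.93) and Ripor2 (-1.79, but -0.72 by a second probe) differed from these, being lower with DOX in both lines. The DOX effects of Tex14 were -3.19 in the miR-17-92 cells and -1.26 in the control cells, and those of Ripor2 were -2.14 and -0.35.

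The overall size of the response also differed between the lines. The SD of the DOX effects over genes was 0.98 in the miR-17-92 cells and 1.19 in the control cells, and the orthogonal slope of the miR-17-92 effects on the control effects was 0.80. When the control effects were multiplied by that slope before subtraction, 246 of the 437 upper genes and 74 of the 189 lower genes were still at least 2-fold from 0. The helicase median was then 1.23, that of polymerase and fork genes 1.09, of glycolysis 1.02 and of mitosis 0.91, against -0.23 for quiescence and -0.08 for pro-apoptotic genes. Among single genes, Gins2 kept 2.26, Chek1 2.11, Bbc3 -1.62 and Bcl2l11 -1.20.

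Probes of the same gene give the only internal check of these values. For 2528 genes with a second probe detected on all arrays, the spread per probe of the difference was 0.26 (a robust SD of the gap from one probe to the other, scaled to a single probe). Of 174 such genes past 2-fold by their brightest probe, 171 had the same sign by the second probe and 56.3% were past 2-fold by both in the same direction. Probes of 1 gene share the RNA and the array, so this spread leaves out variation between cultures. Over genes, the SD of the difference was 0.62 in the dimmest of 4 equal bins by signal and 0.53 in the brightest. The share at least 2-fold below 0 was 3.45% in the dimmest bin and 1.38% in the brightest, and the share at least 2-fold above 0 was 6.33% and 5.41%. At the detection limit, 225 genes whose weakest detection p-value lay between 0.005 and 0.01 had differences from -1.43 to 1.38, and 187 genes just outside it, up to 0.02, had differences from -1.78 to 1.98.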

How the data were processed

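Biotin-labelled cRNA from 4 cultures was read on Illumina bead arrays (per the labels' protocols) in GenomeStudio, named without a version in the submitters' processing notes. For each of 45281 probes on each array, the authors deposited a linear bead intensity that was not normalized and a detection p-value that was not adjusted, per the file headers. Detection columns carry slide positions, and each was linked to the array whose intensity it follows without a break in order (0 breaks, against at least 16696 with another array). The authors' processed table, also deposited as intensity, is a straight line of the same signal on each array (r = 1). It is linear and not centred, its method is not stated, and its medians were 104.6 and 143.2 in the miR-17-92 cells (DOX first) and 100.9 and 146.9 in the control cells. It was used as an alternative.

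Normal-exponential background correction used limma 3.58.1 (R 4.3.3), which took the negative control levels out of the detection p-values. Signals plus an offset of 16 were quantile normalized on the linear scale and then taken to log2, so values are relative to the other genes. Names came from the platform annotation (34885 probes with 1 gene, 18 with several, 10378 unnamed), and 34807 probes were updated by gene number. The brightest probe detected on all 4 arrays stood for its gene. Genes with no such probe were left out (8674 had a probe detected on at least 1 array), which removes genes that reach background in any group.

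With 1 array per group, no test was run and a 2-fold difference was the rule of size. Members and gene lists were chosen with earlier results of these data known. Named genes are the 15 highest and 15 lowest (clone names passed over), up to 6 members per list with the largest absolute difference, the 5 study targets, Myc and Mir17hg. Others complete a count or a contrast and were chosen after their values were seen. The procedure was tested on simulated data. A simulated difference of 1 was found at a median of 1.00, with 50% of the probes past 2-fold. One of -1 was found at a median of -0.88, with 30.4% past 2-fold.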

Additional observations from a re-analysis of the deposited data

Results flagged for a closer look

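Grasp was the single gene of 6949 whose DOX effects were past 2-fold in opposite directions in the lines, lower with DOX in the miR-17-92 cells (-1.65) and higher in the control cells (1.39), a difference of -3.03. The difference was not tested, since each group held 1 array. A second probe gave -1.65, and the value lay between -3.03 and -2.34 over the 10 alternatives.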

How the results depend on the processing

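No paired analysis was possible because each group held 1 array, and no array could be left out without losing the difference. Against 437 genes at least 2-fold above 0 and 189 below it, the counts were 282 and 76 with the authors' processed values, 276 and 116 without background correction, 203 and 73 in the brighter 50% of the genes, and 267 and 99 with the control effects scaled by the orthogonal slope. With detection on at least 1 array, 618 were above 0 and 417 below it. Of the main 437 and 189 genes, 274 and 74 were also past 2-fold with the authors' values. The share above 0 among genes past 2-fold was 69.8%, 78.8% with the authors' values and 59.7% with detection on at least 1 array.

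Of 338 list medians under the alternatives, 323 moved by less than the spread per probe of 0.26. With the slope scaling, the medians were 1.23 for the helicase, -0.10 for purine synthesis, 0.52 for one-carbon metabolism, -0.24 for ribosome biogenesis, 0.066 for mitochondrial translation, -0.0018 for MYC-activated genes, -0.23 for quiescence, 0.10 for homing and cytokine receptors and 0.18 for PI3K-AKT brakes, which stood at -0.68 with detection on at least 1 array. In the brighter 50% of the genes, hypoxia genes had 0.42 and anti-apoptotic genes -0.33. With a detection p-value of at most 0.05, interferon-induced genes had -0.53 and lysosome and autophagy genes -0.23, a median also found for lysosome and autophagy genes with detection on at least 1 array. No gene or list past 2-fold changed sign among those recomputed. The number of arrays limits the precision.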

Other observations

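Several gene groups not described above leaned to 1 side. Over all genes 50.9% lay above 0, 6.29% at least 2-fold above it and 2.72% at least 2-fold below it. Respiratory chain and ATP synthase genes were above 0 in 36 of 40 detected cases but past 2-fold in 2 (Cox7a2 at 1.07 and Cox7b at 1.06, median 0.44). Of 24 detected ATF4 response genes 17 were above 0 and 5 past 2-fold, namely Stc2 (1.33), asparagine synthetase Asns (1.33) and the amino acid transporter genes Slc3a2 (1.18) and Slc1a4 (1.16), with Cebpb (1.04). Asns had DOX effects of -1.61 in the miR-17-92 cells and -2.95 in the control cells. Sterol and fatty acid synthesis was mixed, with 13 of 22 above 0, Fads1 (1.22) and Mvk (1.19) past 2-fold, and Acly at -0.81. Of 35 detected chaperonin and proteasome genes 27 were above 0 and 2 past 2-fold, with a median of 0.20.

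Lysosome and autophagy genes were below 0 in 18 of 25 detected cases and past 2-fold in 4, with a median of -0.56. These 4 were the protective protein gene Ctsa (-1.62), the cholesterol carrier gene Npc2 (-1.38), the autophagy kinase gene Ulk1 (-1.02, but -0.59 by its second probe) and Lamp1 (-1.01). Npc2 was at 11.87 with DOX and 11.76 without DOX in the miR-17-92 cells, against 13.10 and 11.62 in the control cells. Interferon-induced genes were detected in 9 of 31 cases, with Igtp (-1.13) past 2-fold and a median of -0.21. Homing and cytokine receptor genes (12 of 36 detected, median -0.20) and PI3K-AKT brakes (9 of 19, median -0.27) were all within 2-fold. So were 6323 of all 6949 genes. Both medians turned positive (0.10 and 0.18) when the control effects were scaled. Il27ra, on the homing list, stood at 0.34 but at 1.56 by its second probe. Of 7 detected MYC network genes of 16, Txnip was past 2-fold (median -0.63).

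By chromosome, the share of genes at least 2-fold above 0 ran from 3.57% to 9.44% on the chromosomes with at least 100 genes other than 13, and was 15.1% on chromosome 13. That chromosome carries 34 of the 43 detected canonical histone genes, and its share without them was 6.25%.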
